A study of Homo sapiens with 6 samples.

Results

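Voltage-gated calcium channels were followed through 10 of their subunit genes in OVCAR8, an established human ovarian carcinoma line labelled as wild type. The genes were taken by symbol from a table of 62700 gene IDs: 5 of the 10 human pore genes (CACNA1A, CACNA1C, CACNA1D, CACNA1G and CACNA1H), 2 of the 4 β genes (CACNB1 and CACNB3), 1 of the 8 γ genes (CACNG4) and 2 of the 4 α2δ genes (CACNA2D1 and CACNA2D2). All cells had been deprived of serum overnight. The control group of 3 libraries then received PBS, and the other group of 3 libraries received leptin, a hormone of fat cells, at 100 ng/ml for 24 h. The set was drawn up knowing that CACNA1H and CACNG4 were higher with leptin in these same libraries. The values of the 10 genes are therefore given as a description, with a standard error from the fit across all genes and no p-value. Where a member is said to lie past the threshold (an adjusted p under 0.05 in that fit), this too describes the libraries that led to the choice.

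Voltage-gated calcium channels open when the membrane depolarises and let calcium into the cell, where it acts as a signal for contraction, secretion and transcription. The pore is 1 long α1 protein, and its gene sets the channel type: CACNA1C and CACNA1D make L-type channels, CACNA1A makes P/Q-type channels, and CACNA1G and CACNA1H make T-type channels, which open at weaker depolarisation. Channels other than the T-type take on a cytoplasmic β subunit and an extracellular α2δ subunit, which bring them to the membrane and tune their gating. The γ family is mixed, since CACNG4 belongs to a branch, the TARP proteins, better known for carrying AMPA-type glutamate receptors to synapses. Leptin acts through its receptor, the kinase JAK2 and the transcription factor STAT3. The submitters describe the comparison as a search for markers of stemness that leptin drives.

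Library totals lay between 15609425 and 18577775 counts. The labels do not say whether replicates came from separate cultures, so the spread between them may be technical. In these bulk libraries a change in the share of cells that express a gene and a change in RNA per cell cannot be told apart. The carcinoma marker PAX8 stood between 354 and 370 CPM (counts relative to the scaled library total) in the controls and between 358 and 369 CPM with leptin, while MUC16 stood at 0.373 CPM or less in every library. Of the 8 ovarian carcinoma markers 7 were tested and 0 passed (edgeR, DESeq2 or limma-voom, with 1 higher at an unadjusted p under 0.05), and their summed level was 3071 to 3343 CPM in the controls and 3486 to 3893 CPM with leptin. KRT7 stood at 281, 355 and 359 CPM in the controls and 283, 744 and 615 CPM with leptin. KRT18 stood at 410, 410 and 409 CPM in the controls and 487, 386 and 355 CPM with leptin. WT1 stood at 2.43, 2.24 and 2.52 CPM in the controls and 1.96, 4.01 and 2.97 CPM with leptin. EPCAM (3.43 to 4.72 and 4.93 to 6.11 CPM) and CDH1 (0 to 0.373 and 0.634 to 0.891 CPM) were higher in all leptin libraries than in any control, as were 16% of all tested genes. CDH1 rests on few counts. The part of these markers in the results was not tested. The leading principal component carried 49.6% of the variance, and leptin replicate 1 had a score of -2.15 on it, between the controls (-31.0 to -23.6) and leptin replicates 2 and 3 (46.3 and 39.6). Of 15685 genes tested in all, 9.81% passed edgeR's quasi-likelihood test at an adjusted p under 0.05, 5.71% as higher and 4.09% as lower with leptin.

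The promoter sequences of the β genes are shown because CACNB1 and CACNB3 were the members with the highest counts and both were higher in every leptin library, and because CACNB4 was the subunit gene outside the 10 that rose. RefSeq windows were found for 7 of the 10 genes. None was found for CACNA1G, CACNA1H or CACNG4, so their promoters were not searched. Each line gives the 250 bases before 1 annotated start (GRCh38.p14), written 5′ to 3′ along the gene, with capitals for GGGCGG (a GC box), TTCNNNGAA (a STAT motif) or TGACGTCA (a cAMP response element) on either strand.

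CACNB1 (chr17:39197670-39197919, minus strand, 76.4% GC): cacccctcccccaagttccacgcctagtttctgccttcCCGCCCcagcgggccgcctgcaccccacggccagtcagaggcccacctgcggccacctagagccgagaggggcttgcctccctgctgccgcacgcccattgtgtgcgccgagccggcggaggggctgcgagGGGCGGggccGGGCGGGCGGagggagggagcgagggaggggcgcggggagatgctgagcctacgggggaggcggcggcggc

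CACNB3 (chr12:48814230-48814479, plus strand, 65.6% GC): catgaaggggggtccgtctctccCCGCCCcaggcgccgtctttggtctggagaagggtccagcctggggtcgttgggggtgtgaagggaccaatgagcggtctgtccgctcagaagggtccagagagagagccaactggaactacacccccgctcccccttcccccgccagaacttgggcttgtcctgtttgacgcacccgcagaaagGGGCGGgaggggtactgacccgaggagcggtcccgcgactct

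CACNB4 (chr2:152099168-152099417, minus strand, 58.8% GC): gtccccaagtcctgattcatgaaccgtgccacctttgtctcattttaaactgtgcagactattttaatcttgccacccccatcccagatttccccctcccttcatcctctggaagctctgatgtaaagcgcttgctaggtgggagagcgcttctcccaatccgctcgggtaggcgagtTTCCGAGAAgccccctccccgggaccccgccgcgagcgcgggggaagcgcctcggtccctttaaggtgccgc

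The CACNB1 window held 4 GC boxes, of which 2 overlap each other, and the CACNB3 window shown held 2. A GC box was present in 42.6% of all 35116 windows of this length. The CACNB4 window shown held 1 STAT motif, present in 6.57% of all windows, and no GC box. It is 1 of 5 CACNB4 windows, of which 2 hold the STAT motif and 2 hold a GC box. The 2 windows with the STAT motif overlap and share the same 1 site. CACNB3 has 3 windows, with 2, 0 and 2 GC boxes. No window of the 7 members with windows held the STAT motif, while CACNA1H, CACNG4 and CACNA1G had no window to search. Neither the members' windows nor the CACNB4 windows held the cAMP response element, present in 1.65% of all windows. These matches describe letters only.

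In control cells the 5 accessory genes among the 10 were transcribed and the 5 pore genes among them almost were not. Levels between genes are compared in TPM, in which the counts of each gene are divided by its exon length before libraries are brought to a common total. CACNB3 stood at 24.2 ± 1.501 TPM (mean ± SD, n = 3) and CACNB1 at 20.4 ± 1.36 TPM, near the middle of tested protein-coding genes (percentiles 59.5 and 57.4 over all 6 libraries). CACNA2D1 followed at 6.64 ± 0.422 TPM, CACNA2D2 at 2.87 ± 0.152 TPM and CACNG4 at 1.0001 ± 0.272 TPM. Each of these 5 genes stood apart from the next by more than their SDs. Accessory genes outside the 10 were mostly lower. Of those tested, mean control levels were 5.56 TPM for CACNA2D3, 0.367 TPM for CACNG8, 0.342 TPM for CACNB2 and 0.223 TPM for CACNB4. The rest had no count or too few counts to test.

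Among the 10 genes, the 5 pore genes came last. Mean control levels were 0.151 TPM for CACNA1H, 0.135 TPM for CACNA1G, 0.0525 TPM for CACNA1A, 0.0482 TPM for CACNA1D and 0.0097 TPM for CACNA1C. Their SDs lay between 0.0168 and 0.138 TPM. Each overlapped its neighbour in this order, while CACNA1H was above CACNA1C in every control library. The exon length of CACNA1A, 43150 bases, is the union of many annotated exons and lowers its TPM. The plot of TPM by gene and library shows this step between the accessory and pore genes chosen, not between the whole classes.

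**Figure D1:**
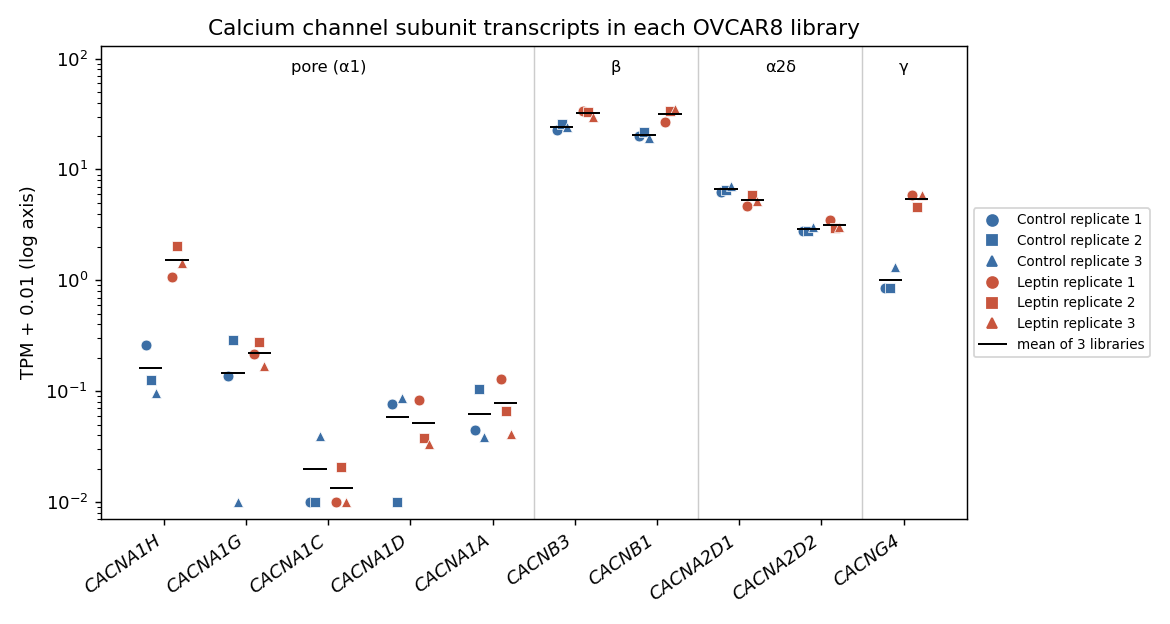
TPM plus 0.01 on a log axis for each of the 10 subunit genes, grouped by subunit class, with 1 symbol per library (blue for control, red for leptin, shape for replicate) and a black bar at the mean of 3 libraries. The β genes lie above 19 TPM in every library and the pore genes below 2.1 TPM, and the leptin symbols of CACNA1H and CACNG4 lie above all of their control symbols.

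CACNA1H, a T-type pore gene on chromosome 16 (1153106 to 1221771, hg38, plus strand), had few control counts: 10, 4 and 3 in replicates 1, 2 and 3. With leptin the counts were 39, 65 and 54. In CPM the control libraries stood at 0.527, 0.248 and 0.180 and the leptin libraries at 2.25, 4.34 and 3.21. All leptin libraries were above all controls, and leptin replicate 1 was the lowest of them. The log2 fold change was 3.29 ± 0.46 (SE, edgeR). The control value rests on 17 counts in all, and the ratio of pooled, scaled counts was 9.78, with an exact (Clopper-Pearson) 95% interval of 5.92 to 17.2 that covers counting error only. CACNA1H passed the filter on low counts through its leptin libraries, so its place among the tested genes is not independent of the difference.

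CACNG4, the TARP gene on chromosome 17 (66964707 to 67033398, plus strand), had 14, 12 and 19 counts in the controls against 91, 60 and 93 under leptin. Its CPM values were 0.738, 0.745 and 1.14 in the controls and 5.25, 4.01 and 5.52 with leptin. The groups were again apart, but here leptin replicate 2, not replicate 1, was the lowest leptin library. The log2 fold change was 2.49 ± 0.30 (SE, edgeR), and the ratio of pooled counts was 5.71 (95% interval 4.14 to 8.03, counting error only). With leptin CACNG4 stood at 5.44 ± 0.786 TPM, beside CACNA2D1 at 5.27 ± 0.579 TPM, a difference within their SDs, while in the controls it had been the lower of the pair in every library.

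The β genes moved less and were counted far more deeply. CACNB1, whose product was first known from skeletal muscle channels, stood at 35.2, 38.1 and 32.9 CPM in the controls and at 47.5, 58.4 and 64.8 CPM with leptin. CACNB3, a β gene of neurons and smooth muscle among other tissues, stood at 40.0, 45.2 and 41.7 CPM and at 59.4, 58.8 and 55.4 CPM. Neither gene's groups overlapped. Leptin replicate 1 was the lowest leptin library for CACNB1 and the highest for CACNB3. The log2 fold changes were 0.69 ± 0.13 for CACNB1 and 0.45 ± 0.10 for CACNB3 (SE, edgeR). With leptin the pair stood at 31.7 ± 4.15 and 32.1 ± 2.23 TPM and could not be ordered.

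The α2δ genes encode the proteins that bind gabapentin. Among the tested members CACNA2D1 was the one that lay lower, at 14.2, 14.7 and 15.8 CPM in the controls and 10.7, 13.3 and 12.5 CPM with leptin. Its groups did not overlap, and its log2 fold change was -0.29 ± 0.15 (SE, edgeR), which was not past the threshold. CACNA2D2 stood at 4.43, 4.47 and 4.801 CPM in the controls and 5.59, 4.74 and 5.11 CPM with leptin. Leptin replicate 2 lay inside the control range, and the log2 fold change was 0.17 ± 0.20 (SE, edgeR), also not past the threshold.

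The other 4 pore genes did not pass the filter on low counts. CACNA1A had 7, 16 and 5 counts in the controls and 22, 9 and 6 with leptin, and CACNA1G had 6, 11 and 0 and then 9, 10 and 7. The ratio of pooled counts was 1.39 for CACNA1A (95% interval 0.828 to 2.36) and 1.61 for CACNA1G (0.841 to 3.16), both intervals covering counting error only and including equality. The L-type gene CACNA1D had 6, 0 and 6 counts in the controls and 6, 2 and 2 with leptin, a ratio of 0.877 (0.339 to 2.22). CACNA1C, the main L-type gene of heart and smooth muscle, had 3 counts in control replicate 3, 1 in leptin replicate 2 and 0 elsewhere. A count of 0 allows up to 3 counts, which is 0.158 to 0.200 CPM across the libraries. With no filter on low counts these 4 genes entered the edgeR fit too, and the number of members past the threshold stayed at 4. In the leave-outs whose smaller groups let them through the filter, 4 each, the log2 fold change ran from 0.15 to 0.77 for CACNA1A and from 0.11 to 0.82 for CACNA1G, and none of these fits put either gene past the threshold.

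Summed over all 10 pore genes, the level was 0.5003, 0.629 and 0.247 TPM in control replicates 1, 2 and 3 and 1.495, 2.44 and 1.77 TPM in leptin replicates 1, 2 and 3. CACNA1H made up 49.7%, 18.7% and 34.98% of this sum in the controls and 70.4%, 83.6% and 80.2% with leptin. The T-type genes together (CACNA1G, CACNA1H and CACNA1I) were 75.3%, 85.1% and 34.98% of the sum in the controls and 87.2%, 94.6% and 89.1% with leptin, so the T-type share of control replicate 2 lay close to the leptin libraries although its CACNA1H level did not. The control shares rest on few counts. All of these are shares of TPM, in which the long exon length of CACNA1A lowers its part. In pooled counts CACNA1A had 28 in the controls and 37 with leptin, against 17 and 158 for CACNA1H. Even with leptin the summed pore level stayed below that of the β genes, which was 43.3 to 48.1 TPM in the controls and 61.3 to 67.2 TPM with leptin.

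**Figure D2:**
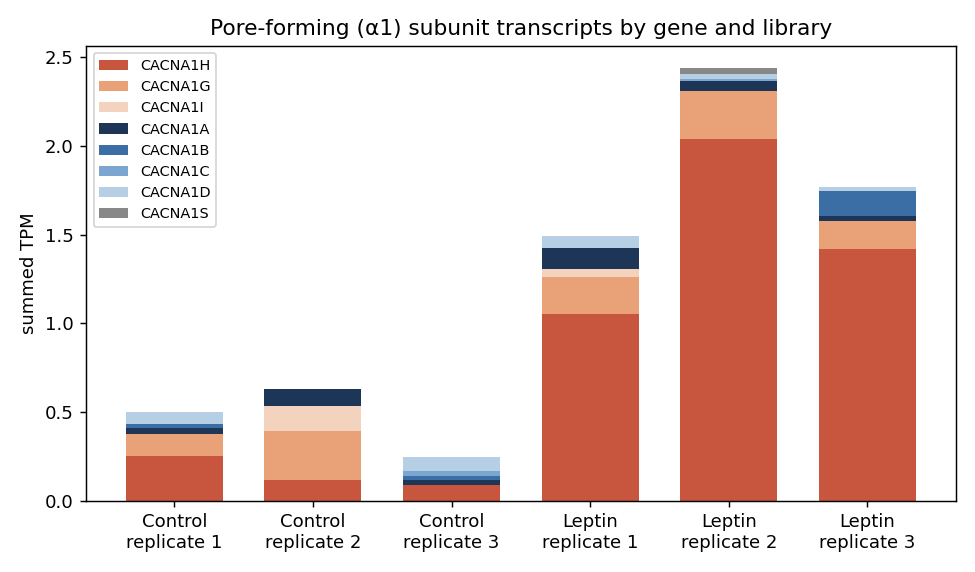
Summed TPM of the pore (α1) genes in each library as stacked bars, with 1 colour per gene, red shades for T-type genes and blue or grey for the others, and CACNA1E and CACNA1F left out because they had no count. The CACNA1H part is 0.249 TPM or less in the controls and 1.05 to 2.04 TPM with leptin, and the other parts show no such step.

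Of the 10 genes, 6 were tested, and 4 of these were past the threshold, all higher with leptin, against 9.81% of all tested genes in either direction and 5.71% as higher. The control and leptin libraries did not overlap for 5 of the 10 genes, all 5 among the 6 tested, against 32.2% of all tested genes. Because the genes were picked with this contrast in view, nothing is read from either count. The count of 4 fell to 2, CACNA1H and CACNG4, without control replicate 1, 2 or 3 or without leptin replicate 3, each taken out alone. With each of the 6 libraries left out in turn, CACNA1H had log2 fold changes from 3.02 to 3.88. They ran from 2.38 to 2.72 for CACNG4, from 0.57 to 0.79 for CACNB1 and from 0.41 to 0.50 for CACNB3.

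Fold changes in these libraries followed the GC content of the transcripts, and the members differ widely in it. When tested genes were cut into 5 equal bins by GC, the bin with most GC had a median log2 fold change of 0.30, with 17.6% of genes higher and 0.590% lower. In the bin with least GC it was -0.13, with 0.754% higher and 7.31% lower. CACNA1H (66.1% GC), CACNB3 (59.8%), CACNB1 (58.6%) and CACNA2D2 (58.1%) lie in the bin with most GC and CACNA2D1 (37.2%) in the bin with least, while CACNG4 (57.0%) lies in the bin next to the top. After removal of the GC trend from each library, the log2 fold change was 2.83 ± 0.45 for CACNA1H and 2.36 ± 0.30 for CACNG4 (SE, edgeR). It was 0.51 ± 0.12 for CACNB1, 0.24 ± 0.10 for CACNB3, -0.15 ± 0.14 for CACNA2D1 and 0.02 ± 0.20 for CACNA2D2, and the CACNB3 value was no longer past the threshold. That left 3 of the 6 tested members past it, against 5.53% of all tested genes in either direction and 2.72% as higher, from which again nothing is read. How far GC content bears on the members' differences was not tested further.

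**Figure D3:**
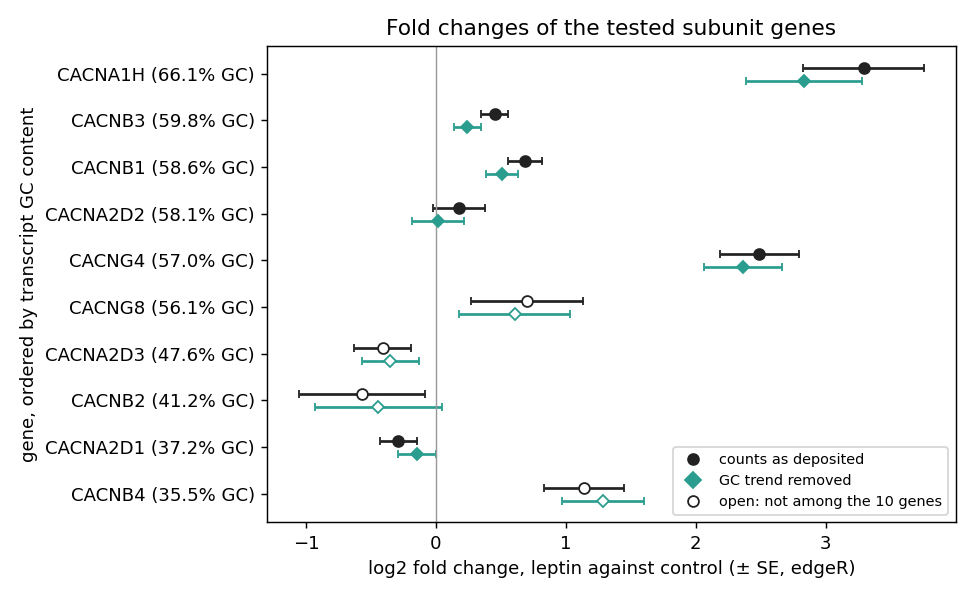
Log2 fold change of leptin against control with its SE from edgeR for the tested subunit genes, ordered from least (bottom) to most (top) transcript GC, with counts as deposited in black circles and the GC trend removed in green diamonds. Filled symbols are members and open symbols are other subunit genes. CACNA1H and CACNG4 lie above 2.3 on both scales, and CACNB4, at the lowest GC content, lies above 1.1 on both.

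Counting was done without strand, so exons shared with a neighbour could not be assigned. CACNA1H shared 2.59% of its exon bases with opposite-strand genes (TPSG1 and 1 without a symbol), CACNG4 6.39% with 1 such gene and CACNB1 5.78% with 1, and none of these partners had a count in any library. The partners of 3 other members did: CACNA2D2 shared 9.31% of its exon bases with genes that had 7 counts over all libraries, CACNA1D 7.29% with CHDH (103 counts) and CACNA1C 4.70% with genes that had 1 count. CACNB3 and CACNA2D1 shared no exon base with another gene. SSTR5, a somatostatin receptor gene and the nearest tested protein-coding gene before CACNA1H, at 71652 bases, stood at 0.424 ± 0.115 and 0.941 ± 0.282 CPM (a log2 fold change of 1.13 ± 0.49 with an edgeR adjusted p of 0.159). Around CACNG4 the kinase gene PRKCA, 153964 bases before it, stood at 129.9 ± 1.35 and 133 ± 15.6 CPM (edgeR adjusted p = 0.868) and the RNA helicase gene HELZ, 37046 bases after it, at 66.9 ± 1.73 and 53.9 ± 6.92 CPM (edgeR adjusted p = 0.113). CACNG5 and CACNG1, the γ genes that flank CACNG4 more closely, had 0 counts in every library and 4 counts in all.

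The other 16 human subunit genes were not part of the choice and were tested in the same fit. Of these, 7 had no count in any library, 5 had counts too low to test and 4 were tested, of which 1 rose and 0 fell (edgeR, and 0 fell at an unadjusted p under 0.05 or by DESeq2 or limma-voom). Over all tested genes 5.71% were higher, and with 4 genes tested a count of 1 says nothing of the family. CACNB4, a β gene of brain channels, rose from 1.16, 2.36 and 2.34 CPM in the controls to 4.84, 4.08 and 3.92 CPM with no overlap between groups. Its log2 fold change was 1.14 ± 0.31, with an adjusted p of 0.0419 by edgeR's quasi-likelihood test. At 0.223 ± 0.0790 and 0.473 ± 0.0650 TPM it stayed far below CACNB1 and CACNB3. Its transcript has 35.5% GC, in the bin with least GC, and its log2 fold change with the GC trend removed was 1.28 ± 0.32 (edgeR adjusted p = 0.0401). When libraries were left out in turn it passed without leptin replicate 1 (edgeR adjusted p = 0.0255) and in none of the other 5 fits, with the highest adjusted p, 0.168, without control replicate 1.

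The remaining tested subunit genes did not pass. CACNA2D3, the third α2δ gene with sizeable counts, stood at 5.43, 6.77 and 7.02 CPM in the controls and 3.86, 4.88 and 5.70 CPM with leptin (edgeR adjusted p = 0.251 for a log2 fold change of -0.41 ± 0.22). CACNG8, another TARP gene, stood at 0.422, 1.06 and 0.900 CPM and then at 1.27, 1.27 and 1.31 CPM (edgeR adjusted p = 0.321 for a log2 fold change of 0.70 ± 0.43), with all leptin libraries above the controls. CACNB2 stood at 0.738, 0.683 and 1.38 CPM and then at 0.807, 0.401 and 0.653 CPM (edgeR adjusted p = 0.491 for a log2 fold change of -0.57 ± 0.49). CACNA1B, of N-type channels, had 2 counts in the controls and 6 with leptin, all 6 in leptin replicate 3. CACNA1I, the third T-type gene, had 6 counts in control replicate 2, 2 in leptin replicate 1 and 0 elsewhere. CACNA1S, CACNG1 and CACNA2D4 had 4 counts or fewer each over all libraries.

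Genes related to the channels were taken as 6 lists. They cover channel regulators, other calcium entry, calcium release, calcium-dependent signalling, AMPA receptor partners of TARP proteins, and sodium and leak channels. The lists hold 113 genes, of which 79 were tested. Of these 9 rose and 1 fell by edgeR (12 and 2 by DESeq2, 8 and 1 by limma-voom), against 5.71% of all tested genes as higher and 4.09% as lower. The same shares are the background for each list that follows, and nothing particular to a list is read from its count. Their median log2 fold change was 0.13, against 0.01 over all tested genes. Among 17 tested channel regulators and relatives, 1 rose and 1 fell. TMEM37, whose product resembles the γ subunits, rose from 5.55 ± 1.17 to 12.0 ± 0.512 CPM (edgeR adjusted p = 0.00801 for a log2 fold change of 1.11 ± 0.19). CALM2, the gene of this list with the most counts, did not pass (495 ± 28.7 and 414 ± 42.3 CPM, edgeR adjusted p = 0.187).

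The list of other calcium entry genes and related cation channels gave 4 higher and 0 lower of 15 tested genes by edgeR (3 were lower at an unadjusted p under 0.05 and 1 by DESeq2). TRPM4, a cation channel opened by calcium, rose from 14.2 ± 1.16 to 23.2 ± 0.921 CPM (edgeR adjusted p = 0.0101). The other 3 calls were genes of store-operated entry, in which STIM sensors open ORAI channels when the endoplasmic reticulum is empty: ORAI3 rose from 9.71 ± 0.456 to 15.9 ± 2.64 CPM (edgeR adjusted p = 0.0226), ORAI2 from 51.2 ± 3.75 to 71.9 ± 9.02 CPM (0.0302) and STIM1 from 127 ± 6.93 to 181 ± 33.4 CPM (0.0427). Of the same machinery, ORAI1 (log2 fold change 0.23, edgeR adjusted p = 0.312) and STIM2 (-0.29, 0.1598) did not pass, STIM2 with the opposite sign. These 2 were added after their values were seen. PIEZO1, the gene of this list with the most counts, stood at 243 ± 9.27 and 289 ± 69.3 CPM (edgeR adjusted p = 0.327). None of the 4 was past the threshold with the GC trend removed.

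Of 17 tested release channels, pumps and exchangers, 0 rose and 0 fell by edgeR, DESeq2 or limma-voom, while without adjustment 1 was higher and 3 were lower at p under 0.05, and ITPR3, with the most counts, stood at 591 ± 44.4 and 663 ± 141 CPM (edgeR adjusted p = 0.522). Of 20 tested genes of calcium-dependent signalling, 2 rose and 0 fell: RCAN1, an inhibitor of calcineurin, from 25.8 ± 0.756 to 38.9 ± 7.31 CPM (edgeR adjusted p = 0.0284), and NFATC1, a transcription factor that calcineurin activates, from 31.3 ± 2.31 to 44.3 ± 5.01 CPM (0.0299). CAMK2G, with the most counts, stood at 83.8 ± 2.19 and 80.2 ± 13.2 CPM (edgeR adjusted p = 0.791). RCAN1 was past the threshold with the GC trend removed and NFATC1 was not.

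Of 8 AMPA receptor partners of TARP proteins, 2 had enough counts to be tested, and GRIA1 had no count in any library. The scaffold gene DLG4 rose from 7.78 ± 0.757 to 14.4 ± 1.08 CPM (edgeR adjusted p = 0.00893), and CNIH3 did not pass (32.8 ± 0.179 and 39.5 ± 4.32 CPM, edgeR adjusted p = 0.1601). Of 8 tested sodium and leak channel genes 1 rose and 0 fell by edgeR, with 0 lower at an unadjusted p under 0.05 or by DESeq2 or limma-voom, and SCN2A stood at 21.4 ± 1.21 and 22.2 ± 2.07 CPM (edgeR adjusted p = 0.823). Of the 10 called genes of the 6 lists and CACNB4, 11 in all, 5 passed with the GC trend removed, among them CACNB4, TMEM37, RCAN1 and DLG4. Without control replicates 1, 2 and 3 the number that passed was 0, 3 and 0, and without leptin replicates 1, 2 and 3 it was 11, 5 and 1, so none passed in all 6 leave-outs.

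**Figure D4:**
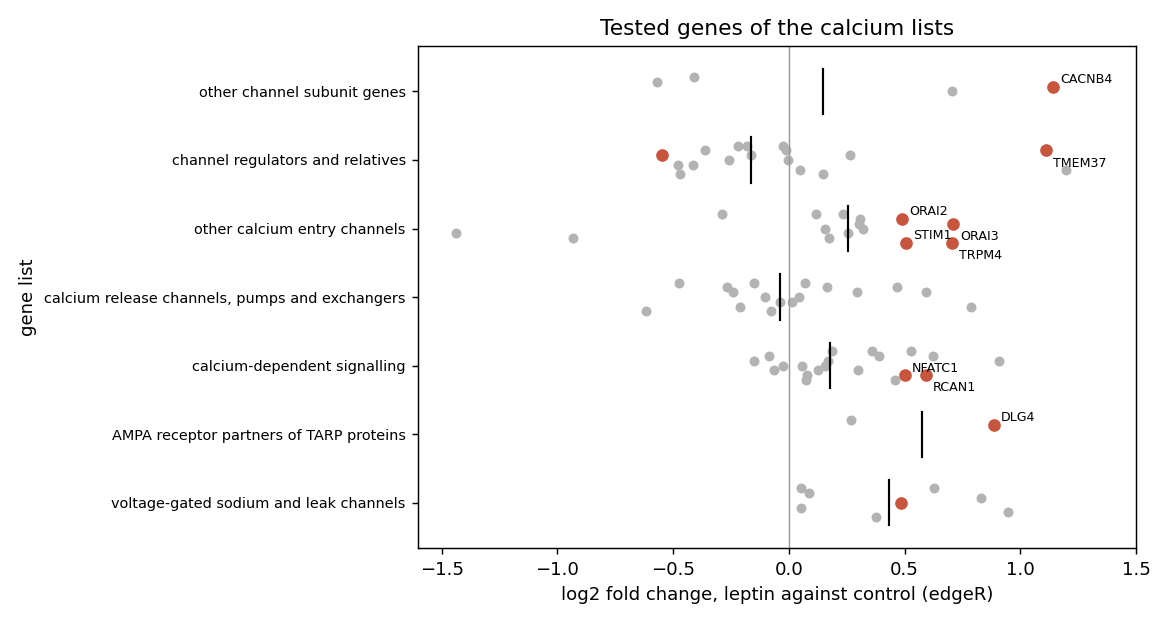
Log2 fold change of leptin against control (edgeR) for every tested gene of the 6 lists and of the other subunit genes, 1 row per list and 1 point per gene, with vertical bars at list medians. Red points passed at an adjusted p under 0.05, and those named in the text are labelled: 10 of the 11 red points lie to the right of 0 and 1 to the left.

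Neuron markers, of interest because several of these genes are best known from neurons, summed to 1.95 to 2.40 CPM in the controls and 3.80 to 4.44 CPM with leptin over 8 genes. SYP made up most of this (1.60 ± 0.404 and 3.23 ± 0.281 CPM, edgeR adjusted p = 0.0535, and past the threshold by DESeq2), GAP43 and ELAVL4 had no count in any library, and the part of this difference in the results above was not tested. The 8 muscle markers summed to 0.369 to 1.62 CPM in the controls and 0.831 to 2.02 CPM with leptin, and MYH6, MYH7 and MYOG had no count in any library.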

How the data were processed

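RNA from 3 control and 3 leptin libraries of OVCAR8 cells was sequenced as paired ends from a directional kit, per the labels' protocols. The authors deposited a table of raw counts for each library. Per the file headers, these are fragments: featureCounts 2.0.1 counted read pairs over exons of GENCODE release 44 without a strand option and without counting multi-mapping or multiply assigned pairs. Alignment to hg38 with HISAT2 2.0.5 and the use of DESeq2 come from the submitters' processing notes, which give featureCounts as 1.5.0-p3, unlike the headers. Such counting leaves out pairs over exons shared by overlapping genes.

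All 62700 IDs matched a symbol or kept their ID as one. Counts were tested with edgeR 4.0.16 in R 4.3.3 over all genes passing filterByExpr (minimum count 10, minimum total 15), with TMM scaling, robust quasi-likelihood fits, no replicate block and Benjamini-Hochberg adjustment at 0.05. CPM uses TMM-scaled totals, TPM the deposited exon lengths, and SEs come from the fold change and the F statistic. GC content (longest GENCODE 29 transcript, known for 97.2% of tested genes) was removed as a lowess trend per library with a span of 0.3. Libraries of a group were counted separately, since their counts differed beyond sampling noise. The average chi-square for each gene was 5.30 to 5.61 between control libraries and 19.6 to 45.7 between leptin libraries. The fit was also run on simulated counts with known changes. These had the same spread for every gene and no GC trend, unlike the libraries here. Alternatives were DESeq2 1.42.0, limma-voom 3.58.1, other scalings, other filters, a block for the replicate number, and fits without 1 library. Figures used matplotlib 3.10.9.

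The 10 genes and the lists were chosen with earlier results of these data known. Named are all members, every other subunit gene with a count, in each list up to 4 called genes with the smallest adjusted p and the gene with the highest mean CPM, the nearest tested protein-coding neighbours of CACNA1H and CACNG4, and the 3 genes with a mean CPM of at least 1 closest to each in profile. Some genes that this rule takes in are counted but not reported here.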

Additional observations from a re-analysis of the deposited data

How the results depend on the processing

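The number of the 10 subunit genes past the threshold (4) stayed within 1.5 times under every alternative scaling, filter, test, block and GC setting run, and ranged from 2 to 4 over the leave-outs of 1 library. The count of other subunit genes (1) became 0 with the replicate block and 0 at an adjusted p under 0.01, and ranged from 0 to 1 over the leave-outs. Genes of the 6 lists called higher (9) became 4 with the GC trend removed, 5 with the GC trend removed and the replicate block, and 2 at an adjusted p under 0.01, and ranged from 0 to 23 over the leave-outs. Those lower (1) became 2 with DESeq2, 3 with no filter on low counts, 0 with the GC trend removed and the replicate block, and 0 at an adjusted p under 0.01, and ranged from 0 to 9. All tested genes called (1538) became 2437 with no filter, 868 with the GC trend removed, 942 with the block as well and 274 at an adjusted p under 0.01, and ranged from 115 (without control replicate 1) to 4761 (without leptin replicate 1). Each leave-out has fewer samples, and otherwise the cause was not tested. The replicate numbers did not pair the libraries (same-numbered deviations correlated at -0.05, 0.01 and -0.11), and the correlation was not highest for the same number in every library. With the block 1303 genes were called, and of the genes named in the text CACNB4 lost the call (edgeR adjusted p = 0.0550). Low counts kept 4 pore genes below the filter, and with no filter 4 members of 10 were past the threshold, as with it.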

Other observations

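Over the 6 libraries, the genes whose centred log2 CPM lay closest to that of CACNA1H were SYNDIG1, a synaptic gene (Euclidean distance 0.62 on the log2 scale, 0.184 CPM in controls and 2.11 CPM with leptin on average), SEZ6L2 (1.17, 0.863 and 7.53 CPM) and TMC6 (1.28, 0.741 and 4.09 CPM). Closest to CACNG4 were a gene without a symbol (ENSG00000268981, 0.38, 0.645 and 3.34 CPM), OTUD1, a deubiquitinase gene (0.80, 16.8 and 71.8 CPM), and EMILIN2, an extracellular matrix gene (0.80, 16.4 and 63.3 CPM). All 14264 genes compared share the same 6 libraries, and the distances describe those libraries.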
